A study of Mus musculus with 4 samples.

Results

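The complement genes described here are C1qa, C1qb, C1qc, C3, C3ar1, C5ar1, Cfb and Cfp, 8 of the 31053 features in the count matrices, and they were chosen by symbol. Each symbol matched 1 row. Their UMIs (unique molecular identifiers, each standing for 1 captured RNA molecule) were summed over classes of cells that were gated on marker genes, and no complement gene was used in a gate. A class is called "-like" because no protein was measured.

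The cells were tumour-infiltrating immune cells, sorted from the mammary tumours of 12-week-old FVB/NJ mice and counted one by one by droplet sequencing. In PyMT mice the polyoma middle T antigen drives mammary tumours, and the second genotype, Jagged1/PyMT, also names the Notch ligand Jagged1. The promoter of the Jagged1 allele is not stated in the labels, and no treatment is listed for either group. The 2 samples of each genotype share 1 matrix with no mark of the sample, so each genotype was 1 library, no test was possible, and intervals (95%) cover counting error only.

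Of 36012036 UMIs in PyMT and 55506773 in Jagged1/PyMT, most fell in 7444 and 7875 called barcodes, whose median depths were 3841 and 4200 UMIs. Between the libraries, 70 called barcodes had the same sequence. Jag1, the gene named by the second genotype, stood at 1.96 CPM (UMIs of a gene per 1000000 UMIs) over all called PyMT barcodes against 16.8 CPM for Jagged1/PyMT, while within macrophage-like cells it was at 13.05 against 9.57 CPM (15 and 151 UMIs), the lower level being that of Jagged1/PyMT. Macrophage-like cells made up 184 PyMT barcodes (2.47%, 2.13% to 2.85%) and 1759 Jagged1/PyMT barcodes (22.3%, 21.4% to 23.3%). Of marker genes kept out of the gates, Cd68 was at 687 and 725 CPM in macrophage-like cells and at 3.66 and 15.7 CPM in T cell-like cells. S100a8 was at 33395 and 65810 CPM in neutrophil-like cells. Other such markers did not follow the class names: in Jagged1/PyMT Mrc1, a macrophage marker, was at 23.1 CPM in macrophage-like and 109 CPM in monocyte-like cells, and Ifitm6, a monocyte marker, was at 180 CPM in monocyte-like and 1315 CPM in neutrophil-like cells. Barcodes with markers of more than 1 cell compartment were left out of the classes, 342 in PyMT (4.59%) and 1222 in Jagged1/PyMT (15.5%).

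Complement is a cascade of blood and tissue proteins that tags targets for uptake and attracts leukocytes. C1q, built from A, B and C chains, starts the classical pathway on antibody or dying cells, and unlike most complement proteins it is made largely by macrophages and related cells rather than by the liver. C3 is the hub of all pathways, factor B (Cfb) forms the C3-cleaving enzyme of the alternative pathway, properdin (Cfp) stabilises that enzyme, and C3ar1 and C5ar1 are the receptors of the released fragments C3a and C5a.

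All 8 genes lie on the minus strand in GENCODE vM21 (GRCm38) and are annotated as protein coding. C1qb (chr4:136880129-136886187), C1qc (chr4:136889804-136893065) and C1qa (chr4:136895917-136898803) sit side by side within 18675 bases, with gaps of 3616 and 2851 bases between them. C3 is at chr17:57203970-57228136, C3ar1 at chr6:122847138-122856161, C5ar1 at chr7:16246743-16259540 and Cfp at chrX:20925454-20931555. Cfb, at chr17:34856374-34862518, is overlapped on the same strand by Gm20547 over 6107 of its 6145 bases, and Gm20547 had 0 UMIs in called barcodes of both libraries. Counts of Cfb are therefore uncertain.

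Promoters of C1qb, C1qc and Cfp are shown because the C1q genes kept similar proportions in macrophage-like cells of both libraries while Cfp had a different class pattern. Each runs from 250 bases before to 50 bases after the RefSeq start (GRCm38.p6), 5' to 3' in the direction of the gene. They cover chr4:136886151-136886450, chr4:136892865-136893164 and chrX:20931506-20931805, all on the minus strand. Capitals mark matches, on either strand, to GAGGAA (the core bound by the myeloid factor PU.1) and TGCTGA (part of the element bound by MAF factors).
C1qb: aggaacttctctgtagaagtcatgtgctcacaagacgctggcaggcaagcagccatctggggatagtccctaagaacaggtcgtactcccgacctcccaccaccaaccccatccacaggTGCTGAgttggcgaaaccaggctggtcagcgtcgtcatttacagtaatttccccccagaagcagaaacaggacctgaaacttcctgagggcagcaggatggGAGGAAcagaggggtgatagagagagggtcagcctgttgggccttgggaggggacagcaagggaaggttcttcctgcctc
C1qc: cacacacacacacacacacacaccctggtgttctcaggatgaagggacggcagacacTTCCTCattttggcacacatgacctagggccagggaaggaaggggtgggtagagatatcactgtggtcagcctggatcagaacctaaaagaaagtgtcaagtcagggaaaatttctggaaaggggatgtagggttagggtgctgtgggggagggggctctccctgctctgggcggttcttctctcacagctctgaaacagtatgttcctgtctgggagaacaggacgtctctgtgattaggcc
Cfp: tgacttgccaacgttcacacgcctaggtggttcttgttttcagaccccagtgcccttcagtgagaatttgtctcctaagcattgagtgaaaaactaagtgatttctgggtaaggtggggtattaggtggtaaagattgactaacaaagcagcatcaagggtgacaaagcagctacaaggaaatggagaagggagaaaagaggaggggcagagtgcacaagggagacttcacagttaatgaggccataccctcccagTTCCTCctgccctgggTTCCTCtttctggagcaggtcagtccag
GAGGAA or its reverse complement was found in C1qb, 30 bases before the start, in C1qc, 193 bases before it, and at 2 places in Cfp. TGCTGA was found in C1qb, 131 bases before the start. The interferon-stimulated element and TTGCNNAA (C/EBP), searched on both strands, had no match in these windows. Of 32851 mouse promoter windows of the same length, 28.3% held GAGGAA, 19.5% TGCTGA, 3.44% the interferon-stimulated element and 10.8% TTGCNNAA, so these matches are common and serve as a description only. The C3 window held TTGCGAAA, a match to the C/EBP pattern, 45 bases before its start.

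C1q RNA marked macrophage-like cells in both libraries. In PyMT macrophage-like cells C1qa was at 3718 CPM (3608 to 3831), C1qb at 3394 CPM (3288 to 3502) and C1qc at 3091 CPM (2990 to 3194). In Jagged1/PyMT macrophage-like cells they were at 4475 CPM (4442 to 4508), 3862 CPM (3832 to 3893) and 3706 CPM (3676 to 3736). Every chain was thus slightly higher in Jagged1/PyMT. The chains summed to 10203 CPM for PyMT and 12044 for Jagged1/PyMT, which is a log2 ratio of 0.24 (0.21 to 0.27). Other settings of the processing gave log2 ratios from 0.05 to 0.32, all in the same direction, and averaging over cells instead of UMIs gave 0.05. Within strata of depth the C1q ratio was not uniform. In macrophage-like cells under 2000 UMIs it was -0.07 (-0.17 to 0.03), at 15296 and 14577 CPM. It was 0.28 with 2000 to under 5000 UMIs, 0.16 with 5000 to under 10000 and 0.35 with 10000 or more.

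Over all called barcodes C1q reached 735 CPM (PyMT) and 6067 CPM (Jagged1/PyMT), 8.26 times higher (8.15 to 8.36). This compares with 1.18 times (1.16 to 1.20) within macrophage-like cells, whose share of barcodes differed from 2.47% to 22.3%. The ratio over all barcodes is thus far above that within the class. Barcodes with markers of more than 1 compartment held a further 11026 C1q UMIs in PyMT and 114595 in Jagged1/PyMT, at 3252 and 7349 CPM.

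**Figure D1:**
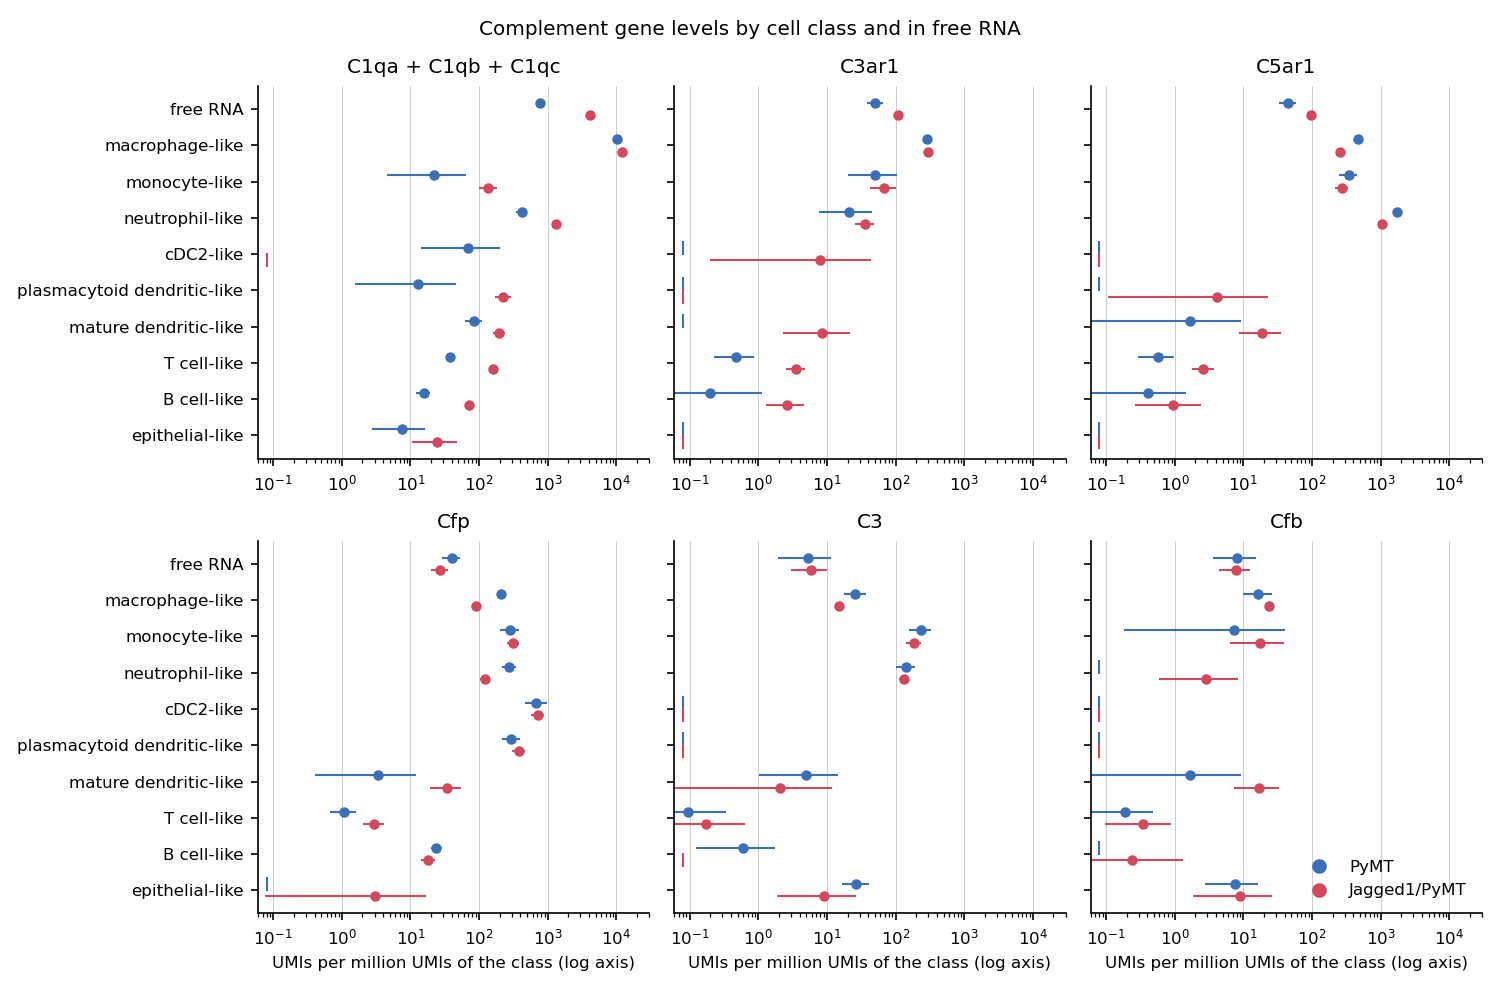
Level of each gene (CPM, log axis) in free RNA and in cell classes of both libraries. Points are class sums, bars exact Poisson 95% intervals, and ticks at the left edge mark 0 UMIs. Of the classes drawn, C1q and C3ar1 are highest in macrophage-like cells, C5ar1 in neutrophil-like cells, C3 in monocyte-like and neutrophil-like cells and Cfp in cDC2-like cells; stromal-like cells (2 in each library) are not drawn.

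Free RNA, read in barcodes under 100 UMIs, held much C1q. It was at 763 CPM (713 to 816) in PyMT and 4155 CPM (4067 to 4244) in Jagged1/PyMT, so droplets without a cell carried it at a higher level in the library with more macrophage-like cells. Macrophage-like cells were 13.4 times above free RNA in PyMT and 2.90 times in Jagged1/PyMT.

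C1q in lymphocytes lay far below free RNA and was higher where free RNA was higher. T cell-like cells were at 37.4 CPM (34.9 to 40.1) in PyMT and 157 CPM (150 to 165) in Jagged1/PyMT, which is 4.91% and 3.78% of the free RNA level. Macrophage RNA of other genes (Apoe, Lyz2, Wfdc17 and Pf4 summed) stood at 4.37% and 5.14% of its own free RNA level in the same cells. B cell-like cells were at 15.5 CPM (12.2 to 19.4) and 71.1 CPM (63.2 to 79.6), 2.03% and 1.71% of free RNA, whereas the same macrophage genes stood at 7.73% and 3.84% there. Between genotypes C1q was 4.20 times higher in T cell-like (3.86 to 4.57) and 4.58 times higher in B cell-like cells (3.56 to 5.97) of Jagged1/PyMT, where free RNA was also higher. T cell-like and B cell-like cells differed from each other beyond counting error, and whether any of this C1q was their own RNA was not tested.

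The share of cells with any C1q UMI also has to be read beside free RNA. A C1q UMI was found in 5.93% of PyMT T cell-like cells (5.29% to 6.62%, median depth 3893 UMIs) and in 24.8% of Jagged1/PyMT T cell-like cells (23.2% to 26.5%, median 3789). In macrophage-like cells the shares were 91.8% (86.9% to 95.4%, median 3824) and 97.0% (96.1% to 97.8%, median 7628). After each cell was thinned to 1000 UMIs the shares in T cell-like cells were 2.51% and 11.5%, and in macrophage-like cells 85.7% and 95.3%.

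The chains were in similar proportions in macrophage-like and T cell-like cells, and free RNA of Jagged1/PyMT differed somewhat from its macrophage-like cells. C1qa made up 36.4% of C1q UMIs (35.6% to 37.3%) in PyMT and 37.2% (36.9% to 37.4%) in Jagged1/PyMT macrophage-like cells, and 37.1% and 37.5% in T cell-like cells. C1qb made up 33.3% (32.4% to 34.1%) and 32.1% (31.9% to 32.3%) in macrophage-like cells, a small difference beyond counting error, and 37.0% (33.7% to 40.3%) and 34.8% (33.8% to 35.8%) in free RNA. In Jagged1/PyMT B cell-like cells C1qa made up 46.3% (40.5% to 52.2%) of 298 C1q UMIs, an interval that lies above the macrophage-like value. Of those 298 UMIs 21 were in 1 cell, and no cell held more than 10 of the 138 C1qa UMIs.

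**Figure D2:**
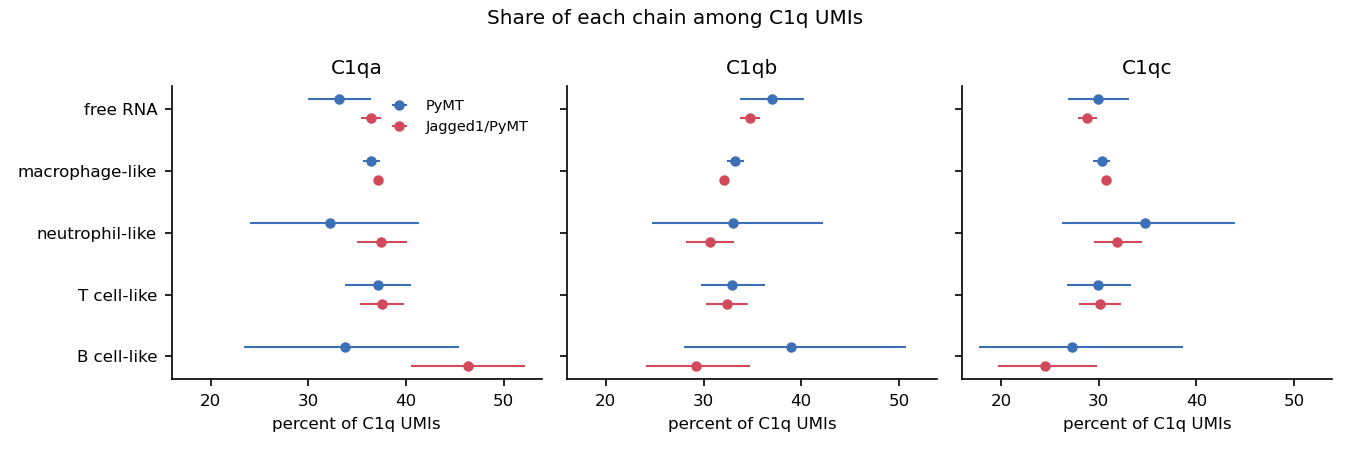
Share of C1qa, C1qb and C1qc among C1q UMIs (percent, axis not from 0) in free RNA and cell classes of both libraries, with exact binomial 95% intervals. In macrophage-like cells the chains lie between 30.3% and 37.2% in both libraries, and C1qa in Jagged1/PyMT B cell-like cells is at 46.3%.

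Macrophage-like cells differed among themselves in C1q. At 1000 UMIs a cell, the median was 12 C1q UMIs in PyMT (quartiles 5 and 18, 161 cells) and 12.5 in Jagged1/PyMT (quartiles 8 and 17, 1688 cells). All chains were found in 70.2% of PyMT cells (62.5% to 77.1%) and in 83.5% of Jagged1/PyMT cells (81.7% to 85.3%). None was found in 14.3% (9.28% to 20.7%) and 4.74% (3.78% to 5.86%). The libraries thus differed most at the low end, in cells without C1q, and little in the middle.

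**Figure D3:**
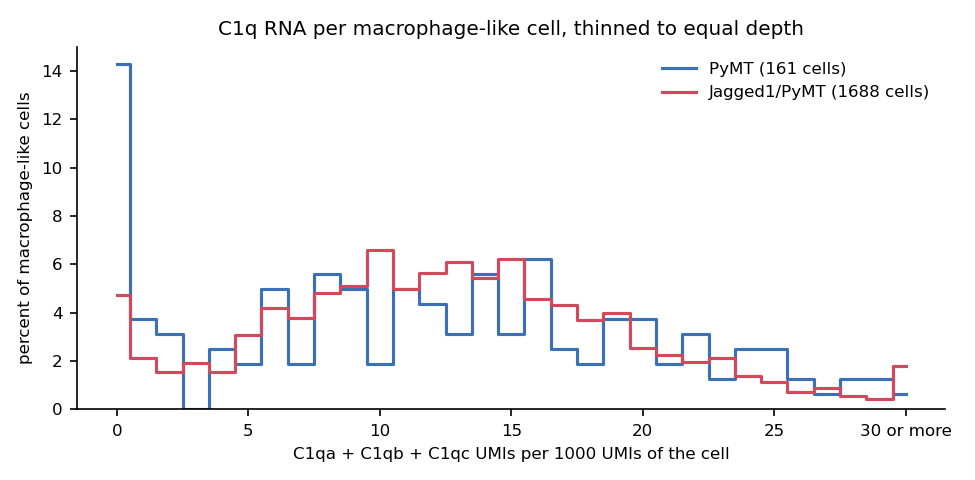
Percent of macrophage-like cells (vertical axis) by number of C1q UMIs after thinning each cell to 1000 UMIs (horizontal axis, the last step holding 30 or more), for 161 PyMT and 1688 Jagged1/PyMT cells. Cells with none are 14.3% in PyMT and 4.74% in Jagged1/PyMT, and the bulk overlaps.

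C1q was lower in macrophage-like cells that also held monocyte markers (Ly6c2, Ccr2, Chil3, Vcan, F13a1, Ms4a4c and Plac8). In PyMT it was at 12784 CPM with none detected (131 cells), 9669 CPM with 1 (27 cells), 7515 CPM with 2 (14 cells) and 1995 CPM with 3 or more (12 cells). In Jagged1/PyMT the levels were 13206, 12224, 9767 and 3796 CPM (1106, 477, 109 and 67 cells). The order was the same in both libraries. Median depth was also higher in cells with more markers (2530 UMIs with none and 10243 with 3 or more in PyMT, 5290.5 and 10947 in Jagged1/PyMT), and thinned cells kept the order, at 13611, 10407, 8071 and 1500 CPM in PyMT and 13729, 12565, 10110 and 3000 CPM in Jagged1/PyMT. In cells without a monocyte marker the log2 ratio of C1q between genotypes was 0.05 (0.01 to 0.08), and in those with 3 or more it was 0.93 (0.75 to 1.11).

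Properdin RNA ran the other way. Cfp was at 91.0 CPM without a monocyte marker and 420 CPM with 3 or more in PyMT, and at 58.0 and 297 CPM in Jagged1/PyMT. C5ar1 showed no such slope in PyMT, at 497, 448, 359 and 427 CPM, and in Jagged1/PyMT it was at 254, 256, 232 and 349 CPM. Cfb in Jagged1/PyMT was at 33.8, 48.0 and 50.9 CPM with 1, 2 and 3 or more monocyte markers.

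**Figure D4:**
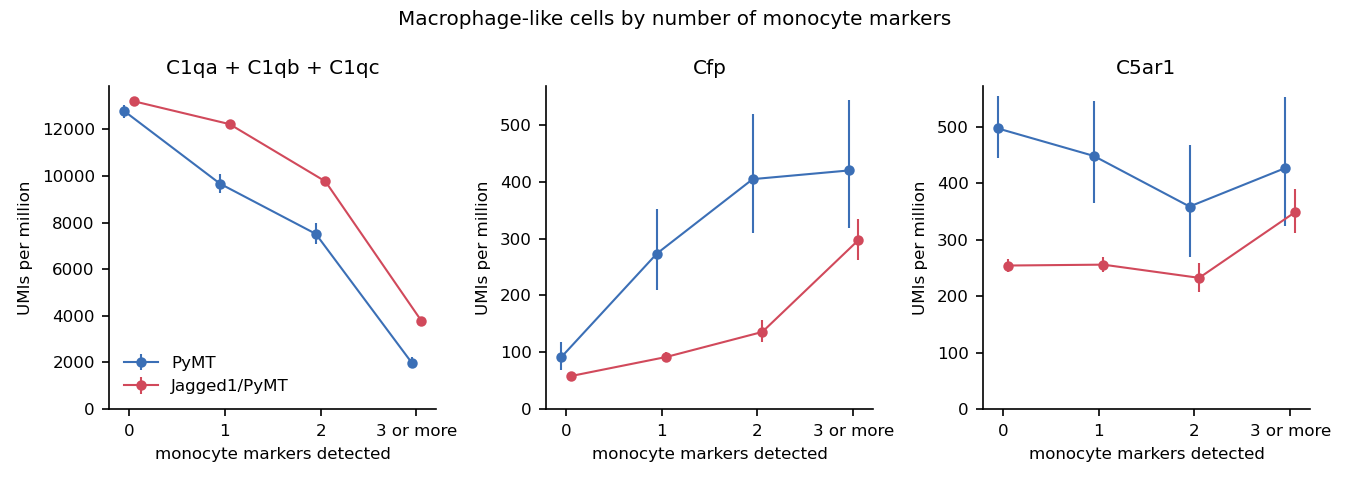
Levels (CPM, axis from 0) of C1q, Cfp and C5ar1 in macrophage-like cells by number of monocyte markers detected, with exact Poisson 95% intervals. C1q goes from 12784 to 1995 CPM in PyMT and from 13206 to 3796 CPM in Jagged1/PyMT, while Cfp is lowest without monocyte markers.

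Subsets of macrophage-like cells gated on other genes carried different amounts of complement RNA. In Jagged1/PyMT, C1q was at 14041 CPM in resident-like cells (129 cells, at least 2 of 7 markers such as Folr2 and Lyve1), 11234 CPM in cycling cells (307 cells) and 6410 CPM in Arg1-positive cells (43 cells), against 12382 CPM in the other 1280. Arg1-positive cells held more C3ar1 (500 CPM against 309), Cfp (186 against 78.9), Cfb (55.4 against 26.8) and C3 (41.1 against 17.1) than those others. In PyMT, C1q was at 11837 CPM in 11 resident-like cells, 9190 CPM in 12 cycling cells and 10172 CPM in 160 others. Only 1 PyMT cell was Arg1-positive. Median depth in resident-like, cycling and other PyMT cells was 8092, 9508 and 3451 UMIs. Thinned PyMT cells reversed the order, at 10818, 13167 and 11630 CPM from 11, 12 and 138 cells. With so few cells and no interval, the order in PyMT stays unsettled. Thinned Jagged1/PyMT cells kept theirs, at 14346.5 (resident-like), 12079 (cycling), 8571 (Arg1-positive) and 12889 CPM (others). C3ar1, Cfp, Cfb and C3 were also higher in thinned Arg1-positive cells than in the others, with C3ar1 at 357 against 274 CPM. Those levels come from 42 thinned Arg1-positive cells, have no interval and rest on few UMIs, fewest for C3 (47.6 CPM). Thinning therefore cannot decide whether the differences in these genes hold at equal depth.

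C3ar1, the C3a receptor, was highest in macrophage-like cells, where the interval of its genotype ratio included no difference. It was at 290 CPM (259 to 322) in PyMT and 297 CPM (289 to 306) in Jagged1/PyMT, for a log2 ratio of 0.04 (-0.12 to 0.20). With mixed barcodes kept it was 0.14 (0.02 to 0.26), and in cells with 3 or more monocyte markers C3ar1 was at 103 and 259 CPM, with a log2 ratio of 1.33 (0.55 to 2.22; 12 and 67 cells). Free RNA was at 50.4 and 108 CPM. Monocyte-like cells were at 50.7 and 67.8 CPM, neutrophil-like cells at 20.9 and 35.9 CPM, and T cell-like cells at 0.469 and 3.59 CPM. Epithelial-like cells had 0 UMIs, which allows up to 3.80 CPM (PyMT) and 9.03 CPM (Jagged1/PyMT).

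C5ar1, the C5a receptor, was highest in neutrophil-like cells and lower in Jagged1/PyMT in both neutrophil-like and macrophage-like cells. Neutrophil-like cells were at 1705 CPM (1558 to 1863) in PyMT and 1045 CPM (984 to 1109) in Jagged1/PyMT. Macrophage-like cells were at 461 CPM (423 to 502) and 258 CPM (250 to 266). Monocyte-like cells, 17 and 38 in number, were at 341 and 271 CPM with overlapping intervals. T cell-like and B cell-like cells lay at or under 2.63 CPM. The log2 ratio in macrophage-like cells was -0.84 (-0.97 to -0.70), and it stayed between -0.97 and -0.52 under every other setting run.

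Within strata the C5ar1 difference was not uniform. It was -0.97 (-1.14 to -0.79) in macrophage-like cells without monocyte markers, and -1.35 in those with 2000 to under 5000 UMIs, -1.06 with 5000 to under 10000 and -0.71 with 10000 or more. With 3 or more monocyte markers it was -0.29 (-0.70 to 0.14), and under 2000 UMIs it was -0.41 (-1.46 to 0.77), both intervals that include no difference. In cycling macrophage-like cells the sign was opposite, at 137 CPM in 12 PyMT cells and 194 CPM in 307 Jagged1/PyMT cells, a log2 ratio of 0.51 (-0.15 to 1.25). Resident-like cells gave -0.89 (-1.28 to -0.48). In neutrophil-like cells the log2 ratio was -0.71 (-0.86 to -0.55), and -1.04 (-1.27 to -0.80) in the 52 and 100 cells with no macrophage marker. In neutrophil-like cells without RNA of the granule genes Ltf, Camp and Ngp, which mark immature neutrophils (85 of 91 and 202 of 259 cells), it was -0.51 (-0.68 to -0.34). Of the neutrophil genes kept out of the gates, S100a8 was at 33395 and 65810 CPM in the same class. S100a9 was at 50107 and 65089 CPM, and G0s2 at 3822 and 3676 CPM. The part of neutrophil maturity in the C5ar1 values was not tested beyond the split by granule genes.

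Cfp was spread over several myeloid and dendritic classes. It was highest in cDC2-like cells, at 683 CPM in 4 PyMT cells and 717 CPM in 12 Jagged1/PyMT cells. Plasmacytoid dendritic-like cells were at 294 and 378 CPM and monocyte-like cells at 283 and 313 CPM. In each of these 3 classes the intervals of the libraries overlapped. Of the 30 Cfp UMIs in PyMT cDC2-like cells, 23 were in 1 cell, so that level rests on a single barcode. In cDC1-like cells Cfp was lower in Jagged1/PyMT, at 148 and 43.0 CPM (15 and 7 UMIs in 8 and 13 cells), with a log2 ratio of -1.78 (-3.32 to -0.40). In B cell-like cells Cfp was at 23.8 CPM (19.7 to 28.4) and 18.1 CPM (14.3 to 22.7), and it was found in 6.13% and 4.78% of cells against 0.461% and 0.445% of T cell-like cells of similar depth. The Cfp levels of B cell-like cells were 59.7% and 67.7% of free RNA, above the 2.03% and 1.71% at which C1q stood.

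In macrophage-like cells Cfp was at 207 CPM (182 to 235) in PyMT and 89.5 CPM (84.9 to 94.3) in Jagged1/PyMT, and in neutrophil-like cells at 276 CPM (218 to 343) and 123 CPM (103 to 146). The macrophage difference (log2 ratio -1.21, -1.41 to -1.01) rested on few PyMT cells: 5 of 184 held 41.2% of the Cfp UMIs. For C1q and C5ar1 the top 5 PyMT cells held 13.2% and 17.5%, and for the sparser C3 and Cfb 56.7% and 63.2%. In Jagged1/PyMT 5 of 1759 cells held 5.95% of the Cfp UMIs and 1.44% of the C1q UMIs. These shares cannot be compared between libraries, because 5 cells are a smaller part of 1759 than of 184. In PyMT neutrophil-like cells 5 of 91 cells held 53.2% of the Cfp UMIs, and 1 cell held 22 of 79. The macrophage difference was present in macrophage-like cells with 10000 or more UMIs, at 308 and 92.2 CPM. In macrophage-like cells of 5000 to under 10000 UMIs Cfp was at 109 and 92.6 CPM, with an interval of the ratio that includes no difference. The sign was opposite at 2000 to under 5000 UMIs, with 57.2 and 69.2 CPM and a log2 ratio of 0.27 (-0.76 to 1.53). Under 2000 UMIs, 57 PyMT cells held 0 Cfp UMIs and 239 Jagged1/PyMT cells held 16. Weighting every macrophage-like cell equally gave a log2 ratio of -0.41, and classes from clusters gave -0.13 (-0.39 to 0.15).

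C3 was highest in stromal-like cells, at 366 and 524 CPM from 2 cells in each library, and low in most immune classes. Monocyte-like cells were at 232 CPM (159 to 328) and 183 CPM (140 to 234), and neutrophil-like cells at 143 CPM (103 to 194) and 132 CPM (111 to 156). Macrophage-like cells were at 26.1 CPM (17.6 to 37.2) and 15.2 CPM (13.4 to 17.3), from 30 and 240 UMIs. Their log2 ratio of -0.78 (-1.33 to -0.18) took the opposite sign when cells were thinned (1.61, -0.97 to 6.96) or clustered (0.42, -0.33 to 1.28). Epithelial-like cells were at 26.6 and 9.03 CPM.

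Cfb was the least counted, with 61 UMIs in all called PyMT barcodes and 663 in Jagged1/PyMT. Macrophage-like cells were at 16.5 CPM (9.95 to 25.8) and 23.9 CPM (21.6 to 26.4), against 7.96 and 7.79 CPM in free RNA. The log2 ratio of 0.53 (-0.13 to 1.28) included no difference, but it was 0.88 (0.11 to 1.77) with at least 2000 UMIs a cell and turned to -0.25 with cells averaged. The highest Cfb level was in PyMT stromal-like cells, at 366 CPM from 4 UMIs in 2 cells, against 0 UMIs in the 2 stromal-like cells of Jagged1/PyMT.

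Of the 8 genes, all with at least 50 UMIs in macrophage-like cells, 3 were over 1.5-fold lower in Jagged1/PyMT (C3, C5ar1 and Cfp) and 0 over 1.5-fold higher. Among all 9498 genes with at least 50 UMIs in these cells, 10.6% were over 1.5-fold lower and 13.4% higher, 24.0% in either direction, so 3 of 8 is to be read beside that. The median log2 ratio was 0.11 over the complement genes and 0.05 over all genes. Of the 3, C5ar1 kept its direction and its interval below 0 under each setting with an interval, whereas C3 and Cfp did not.

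In neutrophil-like cells 6 of the 8 had at least 50 UMIs. C5ar1 and Cfp were over 1.5-fold lower and the C1q genes over 1.5-fold higher in Jagged1/PyMT, where 15.1% of all 2581 genes were lower and 13.1% higher (28.2% either way). C1q there was at 422 CPM (350 to 504) in PyMT and 1339 CPM (1270 to 1410.5) in Jagged1/PyMT. It moved with macrophage markers: cells with 2 or more of 7 held 1401 and 3275 CPM (15 and 70 cells), and cells with none 37.2 and 180 CPM. The latter are 4.87% and 4.33% of free RNA, and Apoe in the same cells was at 6.35% and 4.76% of its own. With no macrophage marker, Cfp was at 201 and 125 CPM, and the interval of its log2 ratio (-1.41 to 0.06) included no difference.

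Among T cell-like cells 5 of the 8 had at least 50 UMIs, and all 5 (the C1q genes, C3ar1 and Cfp) were over 1.5-fold higher in Jagged1/PyMT, where 7.63% of all 9889 genes were higher and 5.67% lower. Of 4 in B cell-like cells the C1q genes were higher, against 4.43% of 7922 genes higher and 6.31% lower. In mature dendritic-like cells C1qa alone had enough UMIs and was higher, against 5.95% of 2234 genes higher and 8.01% lower. C1q and C3ar1 were also higher in free RNA of Jagged1/PyMT. Cfp in T cell-like cells was 2.76 times higher (1.58 to 4.90, 23 and 34 UMIs), while its free RNA was lower, at 39.8 and 26.8 CPM. The share of T cell-like cells with a Cfp UMI, given above, was nearly the same in both libraries. The higher Cfp level thus came from more UMIs in the cells that held any, a spread that the interval does not cover. The part of free RNA in these counts was not tested.

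**Figure D5:**
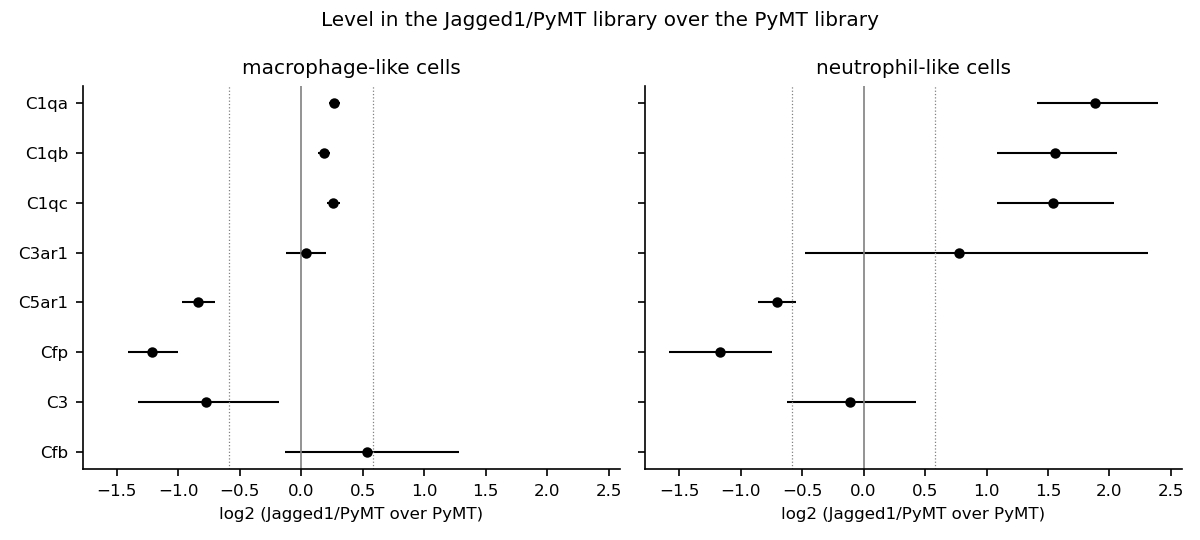
Log2 ratio of levels, Jagged1/PyMT over PyMT, for each gene in macrophage-like and neutrophil-like cells, with exact conditional binomial 95% intervals; dotted lines mark 1.5-fold. Cfb in neutrophil-like cells (0 and 3 UMIs) is not drawn. C5ar1 and Cfp lie below 0 in both classes, and C1q lies above 0 by 0.19 to 0.27 in macrophage-like cells.

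Other complement genes were read from a list of 44, of which 43 were in the matrices and 13 had at least 50 UMIs in macrophage-like cells. C4b, C5ar2 and Itgb2 were over 1.5-fold lower in Jagged1/PyMT and 0 were higher, beside 10.6% lower and 13.4% higher among all 9498 genes in these cells. Itgb2, the shared beta chain of the complement receptors CR3 and CR4, was at 326 and 208 CPM, with a log2 ratio of -0.65 (-0.81 to -0.49). The intervals of C4b (8 and 64 UMIs) and C5ar2 (15 and 132 UMIs) included no difference, and both are named because the count is small, after their values were seen. Itgax, the CR4 alpha chain, was at 144 and 186 CPM, and Lair1, an inhibitory receptor that binds C1q, at 135 and 199 CPM. Lrp1, an endocytic receptor, had 230 and 2166 UMIs there and a log2 ratio of -0.54 (-0.74 to -0.34), and Calr, which encodes the C1q-binding chaperone calreticulin, was at 434 and 432 CPM. Cr2, the receptor for C3 fragments on B cells, was at 184 and 237 CPM in B cell-like cells, and Cd55, an inhibitor of the C3-cleaving enzymes, at 210.5 and 209.8 CPM. Clu, the fluid-phase inhibitor clusterin, was at 770 and 669 CPM in mature dendritic-like and at 736 and 463 CPM in epithelial-like cells. Cd93 was at 79.7 and 109 CPM in monocyte-like cells. In neutrophil-like cells Itgam, the CR3 alpha chain, was at 108 and 80.3 CPM and Cr1l, a regulator on mouse cells, at 112 and 79.4 CPM.

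The genes most like each complement gene were found by Pearson correlation of log2(CPM + 10) over 15 sums of class and library with at least 30 cells, among 10451 genes. These sums share libraries and free RNA, so the values are descriptions. C1q was most like Apoe (r = 0.95), the apolipoprotein that macrophages secrete, then Gatm and Fcrls. C5ar1 was most like Nlrp3 (r = 0.995, an inflammasome sensor), Tlr13 and Ccr1. C3ar1 was most like Slc7a8, Rab3il1 and Dpys, and C3 like Pstpip2, Krt80 and Hp. Cfp was most like Sh2b2 and Cd300a, and Cfb like Snx7, Gsto1 and Fkbp1b.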

How the data were processed

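Raw UMI counts per gene and barcode were deposited by the authors in 1 matrix per genotype, made with Cell Ranger 3.0.2 per the submitters' processing notes and the file headers. They are unnormalised and list 737280 barcodes each, most of them empty. Kit v3.1 3' chemistry was used per the labels' protocols. For the genome build and aligner, the sources used here give no name. Of the 31053 features, 30934 identifiers were found in GENCODE vM21, used for positions, and promoters came from RefSeq tables (GRCm38.p6), which gave no entry for C1qa and Cfb.

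A barcode was called with 500 or more UMIs, 250 or more genes and no more than 10% mitochondrial UMIs. Free RNA is the sum of barcodes under 100 UMIs (3.14% and 3.70% of UMIs). Each of 13 gate lists held 7 markers. A list counted with at least 2 markers detected, and the compartment with most markers, then its leading list, gave the class. Ties were unresolved, and barcodes with at least 2 markers and 3 UMIs from another compartment were mixed and left out. No doublet call was used in the main values. Scrublet's own threshold marked 1.03% of PyMT and 0% of Jagged1/PyMT barcodes, so it had not worked in the latter, and an alternative left out its top 443 and 496 barcodes.

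CPM is a class's summed UMIs of a gene per 1000000 UMIs of the class, with exact Poisson intervals. Shares have exact Clopper-Pearson intervals and ratios exact conditional binomial intervals. A count of 0 allows up to 3 counts. UMIs of 1 library are no replicates, so intervals cover counting error only. Thinning drew 1000 UMIs per cell and left out shallower cells (23 of 184 and 71 of 1759 macrophage-like cells). The ratio step was run on simulated Poisson counts, the model that the intervals assume. That run checks the computation only and leaves out the uneven spread of UMIs over cells. Tools were Python 3.11.15, scipy 1.17.1, scanpy 1.11.5 and leidenalg 0.10.2.

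All 8 genes were measured in every class, and the text gives the classes that bear on each. Other complement genes were named at 100 CPM or more in a class, or when past 1.5-fold in macrophage-like cells with an interval that excludes 1, and 3 genes were named as most like each complement gene. Some genes that meet these rules are not reported here. The genes, lists and markers were chosen with earlier results of these data known. The split of neutrophil-like cells by macrophage markers and by granule genes, the genotype ratios within strata, the spread of UMIs over cells and the minimum of 30 cells for a closer look were chosen after levels were seen. So was the rule that clusters need 3 markers over 2-fold to be named, which replaced a looser rule for T cells.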

Additional observations from a re-analysis of the deposited data

Results flagged for a closer look

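Cfp differed between classes in how it compared between genotypes, and it was picked out because its intervals lie on opposite sides of 0. In mature dendritic-like cells the log2 ratio was 3.33 (1.24 to 6.497), from 2 UMIs in PyMT and 16 in Jagged1/PyMT, the latter in 3 cells. In macrophage-like cells it was -1.21 (-1.41 to -1.01), and in neutrophil-like cells -1.17 (-1.58 to -0.74). At 33.7 CPM, the mature dendritic-like value in Jagged1/PyMT is near the free RNA level of 26.8 CPM. The difference between classes was not tested.

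Barcodes with markers of more than 1 compartment, which the class comparisons leave out, also held C1q, with a log2 ratio of 1.18 (1.15 to 1.20) between genotypes. Those led by macrophage markers were 116 of 342 in PyMT (33.9%) and 849 of 1222 in Jagged1/PyMT (69.5%), and held C1q at 6973 and 8533 CPM. The makeup of these barcodes was not tested further.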

How the results depend on the processing

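No paired analysis was possible because a genotype's samples share 1 matrix, and for the same reason no replicate could be left out. The C1q log2 ratio in macrophage-like cells (0.24) kept its direction under 11 alternatives and moved beyond its counting interval under 8: 0.28 with at least 2000 UMIs, 0.31 with a 5% mitochondrial limit, 0.16 with at least 3 markers, 0.32 with mixed barcodes kept, 0.12 thinned, 0.076 with clusters, 0.052 with cells averaged and 0.047 without monocyte markers. That last alternative and both splits of neutrophil-like cells were added after the data were seen. There C1qb went from 0.19 to -0.013. Thinning gave shares with a C1q UMI of 85.7% and 95.3% in macrophage-like cells. The count over 1.5-fold lower was 1 with mixed barcodes kept (3 otherwise, 2 when thinned or averaged), and the count higher was 1 with at least 1000 or 2000 UMIs, a 5% mitochondrial limit or mixed barcodes kept. C3 in macrophage-like cells turned to 1.61 when thinned and 0.42 with clusters. C5ar1 kept its direction in 11 of 11 alternatives in macrophage-like and 12 of 12 in neutrophil-like cells, and Cfp did too, from -1.32 to -0.13 and from -1.41 to -0.65. C3ar1 lay between -0.20 and 0.39, with an interval above 0 when mixed barcodes were kept (0.14), and Cfb between -0.25 and 0.88, with intervals above 0 with at least 2000 UMIs (0.88), mixed barcodes kept (0.59) and clusters (0.63). Free RNA from barcodes under 50 UMIs held C1q at 755 and 4241 CPM. Depth limits Cfb, C3 in PyMT macrophage-like cells and every class under 30 cells. Clusters are 1 clustering only, whose membership also shifted with the numerical settings of the processor, and a cluster of 27 and 205 cells with C1q at 7890 CPM stayed unnamed.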
